A study of Rattus norvegicus with 12 samples.

Results

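The genes described here code for the proteins of the cytosolic ribosome in cultured rat preadipocytes. They were chosen by name: a probe set counted when its annotation gave exactly 1 gene symbol that starts with Rpl or Rps and a digit, or was Rplp0 or Rpsa, without the Rps6k kinases and Rps19bp1. Where a gene had several such probe sets, the 1 with the highest mean log2 signal over the 12 arrays stood for it. The rule gave 44 of the 10411 genes that had a probe set with a single symbol. Of these, 28 code for large subunit proteins, 12 for small subunit proteins and 4 for paralogs (Rpl3l, Rpl7l1, Rps27l and Rps4y2). A further 34 probe sets of ribosomal protein genes listed several symbols and were left out by the rule, so stalk proteins such as Rplp1 and small subunit proteins such as Rps19 are not described. The level filter left 43 members for testing. It removed Rpl3l, a muscle-type paralog of Rpl3, whose signal was 4.8 to 63.1 over the 12 arrays.

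RNA came from stromal fat cell precursors of male Brown Norway rats, 3 young (3 months) and 3 old (30 months), and each rat gave 1 perirenal and 1 epididymal culture. The cells were freed with collagenase, plated, lifted, replated and grown to confluence, so they are cultures of the adherent stromal fraction and were not sorted. This gave 4 groups of 3 arrays: perirenal cells of young rats, perirenal cells of old rats, and the same for epididymal cells. No genotype or drug treatment is given, and all groups share the culture protocol. The comparisons ask whether the cells differ between depots, with age, and with age differently in each depot. A depot difference is perirenal minus epididymal, an age difference is old minus young, and both are on the log2 scale. The values are MAS5 signals, which have no unit and compare arrays for 1 probe set, not levels between genes. The number of arrays limits the precision.

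Each ribosome joins a small subunit, which reads the mRNA, to a large subunit, which forms the peptide bond and passes the new chain out through an exit tunnel. Most of the proteins are needed in equal numbers, and their mRNAs are among the most abundant of a growing cell. These mRNAs typically start with a C followed by a run of pyrimidines, the 5' terminal oligopyrimidine (TOP) motif, through which mTOR signalling controls their translation.

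Pyrimidine runs near the annotated start, a looser feature than the motif itself, were counted in the members and in all genes. RefSeq sequence around the start (build GRCr8) was matched for 39 of the 44 members, 37 by gene ID and 2 by symbol. A run of at least 8 C or T on the transcribed strand, within 25 bases of the annotated start, was present in 28 of the 39 (71.8%) and in 5308 of all 27457 genes (19.3%), a difference that was not tested. The lines below give 20 bases before the start and 10 from it, 5' to 3' on the gene's strand, with the longest C or T run in capitals. They are the members at both ends of the depot comparison described below, with Rplp0, Rps3 and Rpl13a from between.
Rpl21, chr12:13386144-13386173, minus strand: CCCTCTTCCTTTCCgccggggcagccatct
Rpl26, chr10:54109672-54109701, plus strand: gagaTCTCgtgtcaacttacagaaccggaa
Rpl35, chr3:43165912-43165941, minus strand: ggccccgCCCCTTCCTCTTTCTCTCgaacc
Rpl5, chr14:1995216-1995245, minus strand: cagccaCTCTCTTTCCCacgtcgcttgcgt
Rplp0, chr12:46718381-46718410, minus strand: ctggtgaccgcaccgcaCTTCTCTCgccag
Rps3, chr1:163195767-163195796, minus strand: TTCCTTTCCTTTCagcggcgcgcggcagca
Rpl13a, chr1:104748904-104748933, minus strand: caagaCCTCTTCCTTTCCTaggcggctgcc
Rps9, chr1:74430428-74430457, minus strand: cgcgatccggcggccacgTTTCTCTTTgtc
Rpl39, chrX:121195887-121195916, minus strand: cagcgtcttctaatcgcgTTCTTCCggcct
Rps4y2, chr4:183000893-183000922, plus strand: attgcgcgcgcagCTCTCCTCactcgcttg
Rpl7l1, chr9:21695698-21695727, plus strand: gtggaagCTgcagatgcattgtgggaagcc

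The run spans the annotated start in Rplp0, Rpl35, Rps9 and Rpl39, ends at it in Rps4y2, and lies before it in Rpl21, Rps3, Rpl13a and Rpl5. Rpl26 and the paralog Rpl7l1 show no run longer than 4 and 2 bases in these windows. Annotated starts can differ from the starts used in these cells. By the depot call given below, 19 of 28 matched members called lower had the run within 25 bases (67.9%). So did 3 of 4 called higher (75%) and 5 of 6 not called (83.3%). The last groups are small, and whether the run follows the depot call was not tested. In the whole 300-base window (250 before the start and 50 from it, both strands), the ETS-type motif CCGGAAG was found in 9 members (23.1%, against 9.22% of all genes), the YY1-type motif AAGATGGC in 4 (10.3% against 3.44%) and the TATA motif TATAAA in 6 (15.4% against 14.3%). A match is a match of letters and no measured binding.

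The arrays of the depots differed as wholes, and this touches every depot value below. The mean of each array without the extreme signals was 500.1 to 500.2, the scale to which the authors had set it. Perirenal arrays had median signals from 194.6 to 201.9 and epididymal arrays from 152.9 to 176.0, while the highest signals ran from 18298 to 22613 and from 30670 to 44159. The perirenal arrays thus had the narrower range at both ends. The ratio of 3' to 5' beta-actin signal, which rises when labelled RNA is short, lay between 0.902 and 1.11 for perirenal cells and between 5.25 and 55.0 for epididymal cells. A bacterial control RNA, dap, had a 3' signal of 4.5 to 40.6 and 569.7 to 930.2. Depot and these technical values separated the same arrays and cannot be told apart. The 6 rats are separate animals, and both cultures of a rat share the animal.

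Most ribosomal protein genes had a lower deposited signal in perirenal than in epididymal cells, by modest amounts. Of the 43 tested members, 32 were lower and 4 were higher at an adjusted p under 0.05 (limma, Benjamini-Hochberg), where 21.4% of all tested probe sets were lower, 30.2% were higher and 51.7% were called either way. The members' median difference was -0.38, a fold of 1.31, against 0.08 over all 11106 tested probe sets. By subunit, 23 of 28 large subunit genes were lower and 1 was higher (median -0.42), and 9 of 12 small subunit genes were lower and 1 was higher (median -0.39). The 3 tested paralogs had none lower and 2 higher (median 0.63). All 6 perirenal signals lay below all 6 epididymal signals in 22 members, against 10.8% of all tested probe sets, and above them in 1 member, Rpl7l1, against 17%. Within rats, 31 members were lower in the perirenal culture of all 6 rats. The same count was not made over all probe sets, so it cannot be read as particular to the members.

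**Figure D1:**
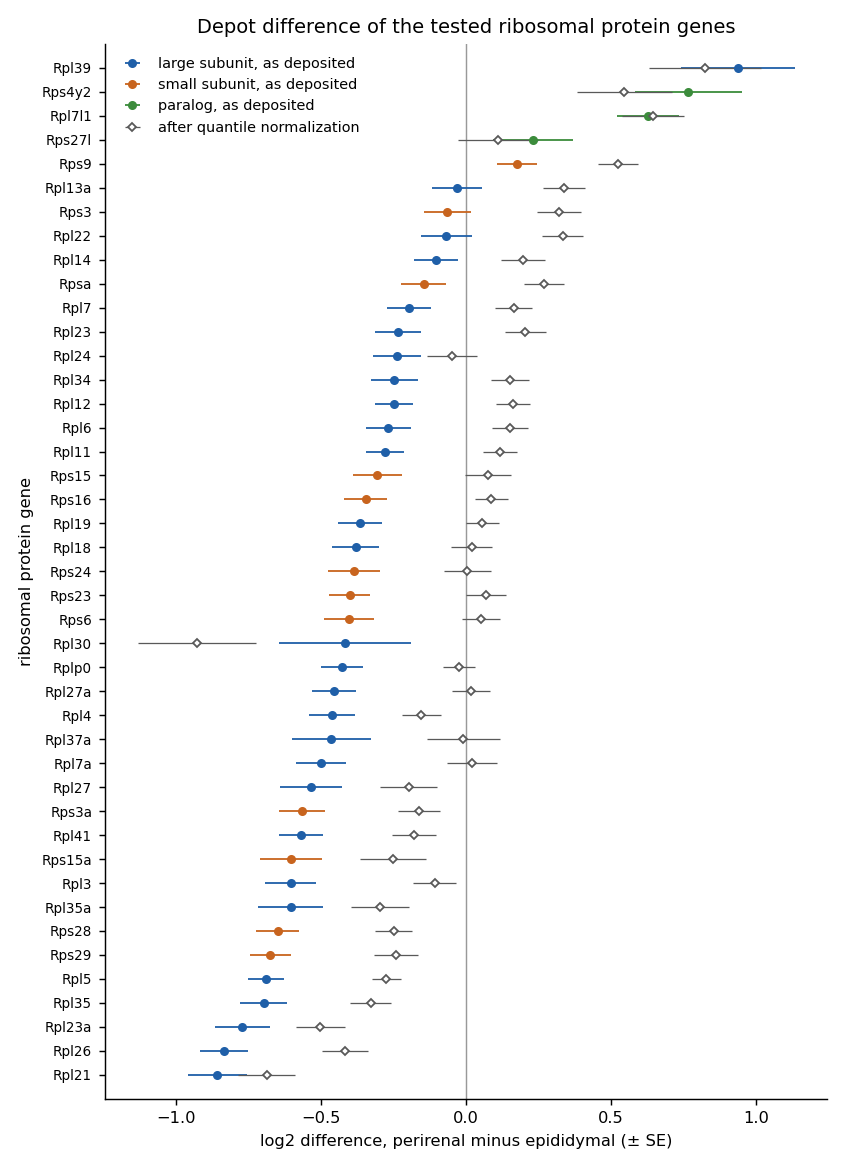
Log2 difference between perirenal and epididymal cells (x axis, ± SE from limma, 12 arrays) for the 43 tested ribosomal protein genes (y axis), as deposited (filled, coloured by subunit) and after quantile normalization of the arrays (open). As deposited, 38 members lie below 0 with a median of -0.38, and after quantile normalization the same members centre on a median of 0.02.

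Other bright probe sets were mostly lower too, and whether the members differ from them was not tested. Of the 43 members, 38 had a mean log2 signal of at least 12, and their median difference was -0.40 with 32 lower and 1 higher. The other 445 probe sets at that signal had a median of -0.28, and 56.2% were lower and 8.09% higher. In the bin from 13 to 14 log2 units, which held 28 members, their median was -0.37 and that of 112 other probe sets -0.39. From 14 upwards, 7 members had a median of -0.45 and 22 other probe sets -0.51. The 3 members between 12 and 13 (Rpl21, Rpl23a and Rpl24) had a median of -0.77, against -0.22 for 312 others. The 5 members under 12 were Rpl30, Rpl39, Rpl7l1, Rps27l and Rps4y2, with a median of 0.63, 3 higher and 0 lower (limma), and 3 of the 5 had an unadjusted p under 0.05.

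**Figure D2:**
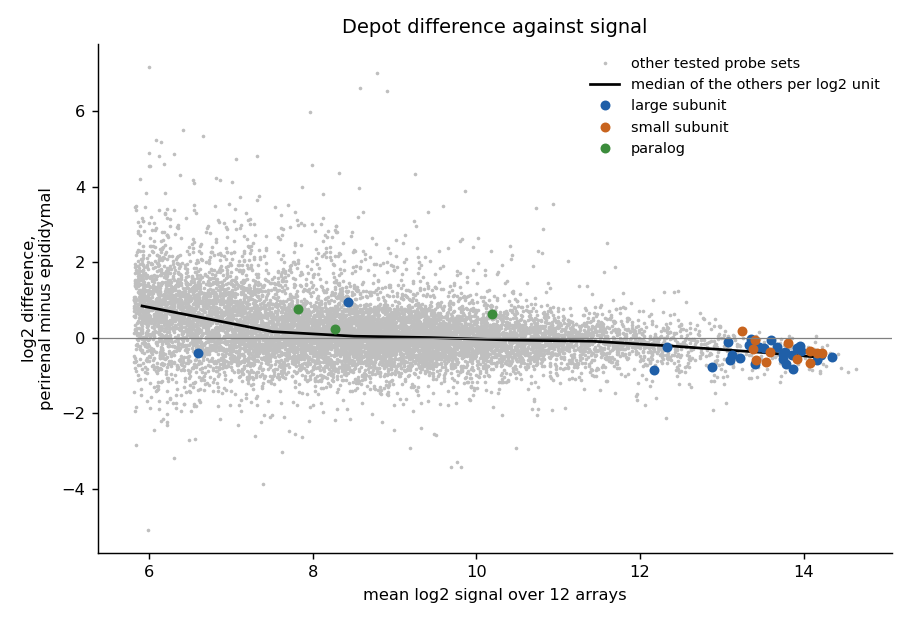
Log2 difference between depots (y axis) against mean log2 signal over 12 arrays (x axis) for all 11106 tested probe sets, with large subunit, small subunit and paralog members coloured and the median of the other probe sets drawn per log2 unit. The median line falls from 0.84 at the dimmest probe sets to -0.51 at the brightest, and the members above a log2 signal of 13 lie around it.

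Another scaling therefore moved the group. Quantile normalization, which gives all arrays the same distribution, left 9 members lower and 12 higher (limma), with a median of 0.02 (all tested probe sets: 25.8% lower, 22.8% higher and 48.6% either way). Cyclic loess gave 15 lower and 7 higher, with a median of -0.05 (24% lower, 23.7% higher, 47.6% either way). Centring each array on its median widened the gap, with 38 lower, 3 higher and a median of -0.67 (38.5% lower, 17.8% higher, 56.3% either way). Of the 32 members lower as deposited, 17 stayed below 0 after quantile normalization, 15 turned above 0, and 3 of these were called higher. The members' median percentile among all probe sets was 99.4 in both depots, so near the top of the scale that a shift of this size would hardly move it. They made up 3.80% to 4.30% of the summed signal of a perirenal array and 4.70% to 5.27% of that of an epididymal array. A common shift of the ribosomal protein genes between depots cannot be told apart from the arrays' signal range, which differed between the same arrays. With the log2 actin ratio as a covariate, 0 members were lower and 1, Rpl39, was higher (limma), where 0.945% of all tested probe sets were lower and 1.52% higher. In that fit 11 members, against 20.3% of all, had an unadjusted p under 0.05, and the members' median was -0.23.

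What did not depend on the scaling was a difference among the members. Under all 4 scalings (as deposited, quantile, loess, median centring), 8 members were called lower: Rpl21, Rpl26, Rpl23a, Rpl35, Rpl5, Rps29, Rps28 and Rpl35a. Under the same 4, Rpl39, Rps4y2 and the brighter probe set of Rpl7l1 were called higher. The second probe set of Rpl7l1 was lower as deposited, as described below. The share of all tested probe sets called alike under all 4 scalings was not counted. These counts therefore cannot be read as particular to the members. When each array was centred on the median of the members, a scaling chosen after seeing the data, 11 members were lower and 9 higher (limma), where 8.6% of all tested probe sets were lower and 51.4% higher. The SD of the depot difference over the 43 members was 0.39 as deposited and 0.33 after quantile normalization, while the median SE of a member's difference as deposited was 0.08. Within the large and the small subunit genes the SD as deposited was 0.34 and 0.25. No such SD is given for other probe sets, so the spread cannot be read as particular to the members. Dim members at the edge of the range had larger SEs, such as Rpl39 (0.94 ± 0.20) and Rps4y2 (0.77 ± 0.18). All of these differences still compare arrays whose 3' to 5' ratios did not overlap, and a gene's distance between probe and 3' end can enter them, which was not tested.

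Among the large subunit proteins, Rpl21, Rpl26, Rpl23a and Rpl35 had the largest falls in perirenal cells as deposited. Rpl26, a protein at the tunnel exit, had perirenal signals of 11348, 11434 and 12540 in young and 11368, 10763 and 9975 in old rats. Its epididymal signals were 18306, 16734 and 22741 in young and 19665, 22500 and 20652 in old rats. Every perirenal array lay below every epididymal one, and the difference was -0.83 ± 0.08 (SE, limma adjusted p = 5.02e-06, n = 6 arrays per depot), a fold of 1.78.

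Rpl35 and Rpl23a also lie at the tunnel exit, where Rpl23a is a docking point for factors that bind the new chain. Rpl35 measured 8735, 8225 and 8366 in young and 8615, 7757 and 9477 in old perirenal cells, and 13445, 15743 and 14694 in young and 11413, 13193 and 14720 in old epididymal cells. The groups did not overlap, at a difference of -0.70 ± 0.08 (limma adjusted p = 1.88e-05). Rpl23a ranged from 4973 to 6288 on perirenal and from 8751 to 11955 on epididymal arrays, again without overlap, at -0.77 ± 0.09 (limma adjusted p = 2.55e-05). Rpl19, on the same face of the subunit, was lower as deposited at -0.36 ± 0.07 but 0.06 after quantile normalization.

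Rpl39, a small basic protein that lines the exit tunnel, was higher in perirenal cells. No list of tunnel proteins was tested. Its signals were 443.9, 477.3 and 534.2 in young and 438.4, 426.2 and 568.8 in old perirenal cells. In epididymal cells they were 181.1, 219.7 and 272.4 in young and 194.3, 477.1 and 243.3 in old rats. Old rat 2 had the high epididymal value of 477.1 and was the only rat in which the perirenal culture was not higher, so the depots overlapped on that array. The difference was 0.94 ± 0.20 (limma adjusted p = 0.00151), the largest rise of any member as deposited. Its probe set lay at percentile 70.0 of the perirenal and 57.9 of the epididymal signals.

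Rpl21 had the largest fall as deposited. Its signals were 3229.9, 2990.7 and 3835.6 in young and 3078.4, 3365.7 and 4187.0 in old perirenal cells, against 5793.9, 6297.7 and 6240.5 in young and 5388.5, 6510.5 and 7095.5 in old epididymal cells. There was a gap between the depots in every pairing of arrays, and the difference was -0.86 ± 0.10 (limma adjusted p = 2.29e-05), a fold of 1.81. It was at -0.69 after quantile normalization, where the dim Rpl30 (-0.93) was lower. Of the starts printed above, that of Rpl21 shows a pyrimidine run of 14 bases, cut by the edge of the print. Its run is 19 bases in the wider search, while that of Rpl26, which fell by a similar amount, is 4. A relation between run and fall was not tested.

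Rpl5 and Rpl11 bind 5S ribosomal RNA together and, when free of ribosomes, also bind the p53 regulator Mdm2. Rpl5 measured 11660, 11506 and 12251 in young and 10668, 10103 and 10758 in old perirenal cells, and 18174, 17970 and 17782 in young and 16241, 19299 and 18392 in old epididymal cells. No perirenal array came near an epididymal one, and the difference of -0.69 ± 0.06 had the smallest adjusted p of the members (limma, 3.02e-06). Rpl11 ranged from 9809 to 11791 on perirenal and from 11298 to 15591 on epididymal arrays, which overlap. Its difference was smaller, -0.28 ± 0.06 (limma adjusted p = 0.00297), and 0.12 after quantile normalization. The partners therefore differed in size: Rpl5 was lower under all 4 scalings and Rpl11 was not.

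**Figure D3:**
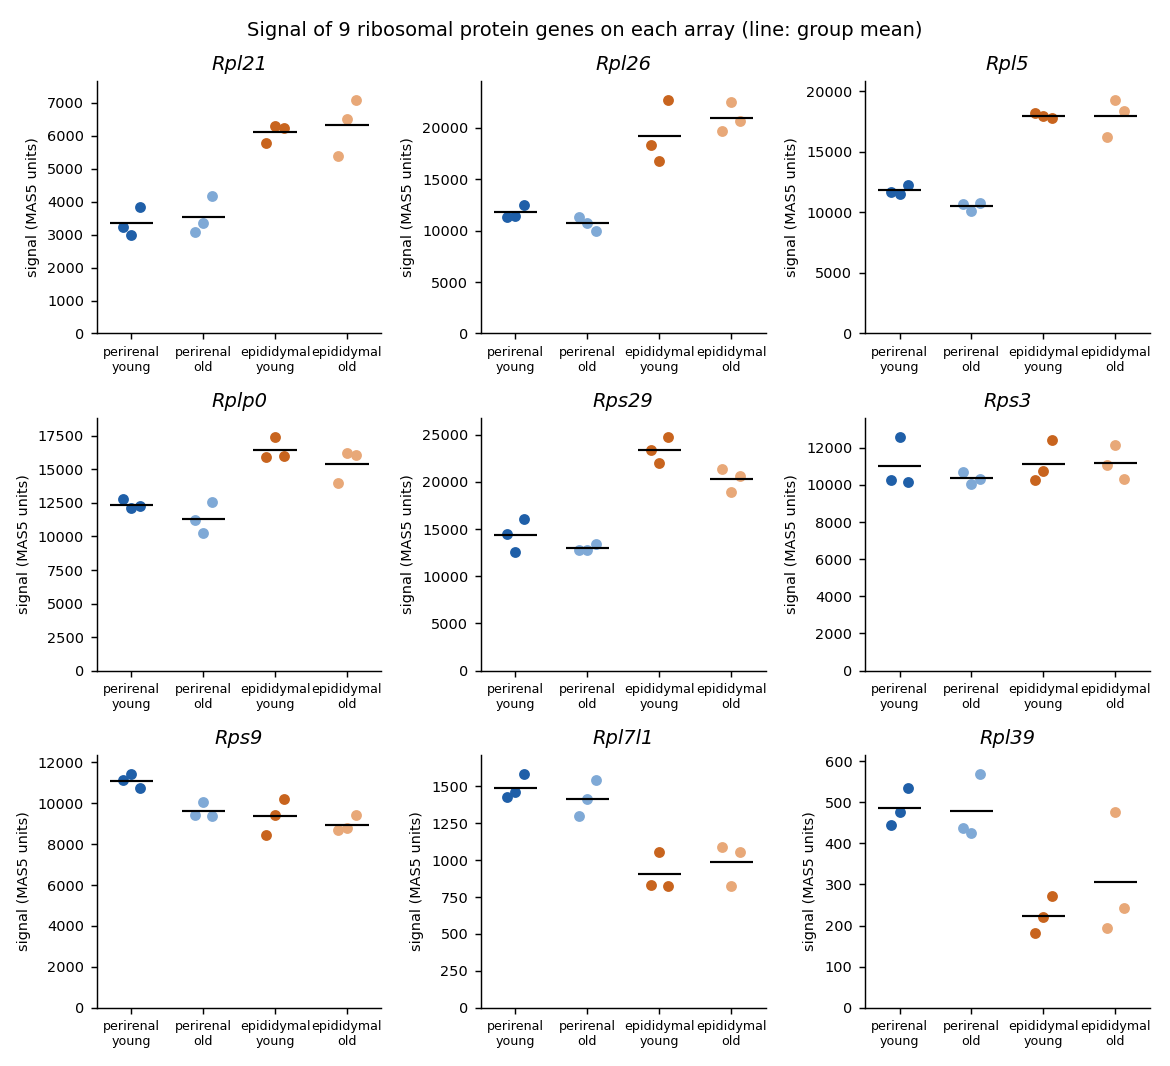
MAS5 signal (y axis, linear, from 0) of 9 ribosomal protein genes on each of the 12 arrays (points), by depot and age (x axis), with the mean of each group of 3 as a line. Rpl21, Rpl26, Rpl5, Rplp0 and Rps29 separate the depots downwards in perirenal cells, Rps3 does not separate them, and Rps9, Rpl7l1 and Rpl39 are higher in perirenal cells, with overlap in Rps9 and Rpl39. The second probe set of Rpl7l1, which is not drawn, was lower in perirenal cells.

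Rplp0 anchors the stalk to which the elongation factors bind, and is often used as a reference gene. Its signals were 12760, 12129 and 12252 in young and 11205, 10238 and 12561 in old perirenal cells, and 15947, 17426 and 15966 in young and 13985, 16190 and 16098 in old epididymal cells. The depots did not overlap as deposited, at -0.43 ± 0.07 (limma adjusted p = 0.000297). After quantile normalization the difference was -0.02 and after centring on the members -0.11, neither of which was called, so Rplp0 moved close to the middle of the group.

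Rpl3 and Rpl4, large proteins that join the subunit early and reach towards its catalytic centre and tunnel, were lower by 0.60 ± 0.09 and 0.46 ± 0.08 on the log2 scale. Rpl41, the shortest ribosomal protein, which bridges the subunits, ranged from 10053 to 12879 on perirenal and from 14819 to 18469 on epididymal arrays. Its depots did not overlap, and the difference was -0.57 ± 0.07 (limma adjusted p = 4.93e-05). Rpl13a, which also serves in a translation-silencing complex, ranged from 9267 to 11426 and from 9057 to 12242, and its difference of -0.03 ± 0.09 was not called (limma adjusted p = 0.781). After quantile normalization Rpl13a was called higher at 0.34, as was Rpl22 at 0.33. The annotated starts of Rpl13a and Rpl22 have pyrimidine runs of 14 and 15 bases.

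The other large subunit members that were called lower ran from -0.60 (Rpl35a) to -0.20 (Rpl7), and included Rpl7a, Rpl27, Rpl27a, Rpl37a, Rpl18, Rpl34 and Rpl12. Rpl37a had the widest spread of them: its perirenal signals ran from 9887 to 17854 and its epididymal signals from 12082 to 20759, with 4 of 6 rats lower in perirenal cells. Rpl14 (-0.10 ± 0.08) and Rpl30 (-0.42 ± 0.23) were not called (limma adjusted p = 0.28 and 0.138). The probe set of Rpl30 was dim, at 69.0 to 157.1. Rpl30 was called lower under the other scalings, at -0.93 after quantile normalization (limma adjusted p = 0.00227), -0.88 after loess and -0.70 after median centring.

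In the small subunit, Rps29 and Rps28 were the lowest. Rps29, a zinc-binding protein of the subunit head, measured 14438, 12592 and 16093 in young and 12804, 12772 and 13462 in old perirenal cells. It measured 23362, 22014 and 24768 in young and 21355, 18967 and 20600 in old epididymal cells. The depots were fully apart, at -0.67 ± 0.07 (limma adjusted p = 9.33e-06). Rps28, close to where mRNA leaves the subunit, ranged from 8835 to 10505 and from 13225 to 16419, at -0.65 ± 0.07 (limma adjusted p = 1.44e-05). Rps15a (-0.60 ± 0.11) and Rps3a (-0.57 ± 0.08) were also called lower as deposited.

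Rps3 and Rps9, both near the entry of the mRNA channel, were not called lower as deposited. Rps3 measured 10237, 12585 and 10155 in young and 10674, 10047 and 10329 in old perirenal cells, and 10265, 10733 and 12427 in young and 11051, 12154 and 10304 in old epididymal cells. These overlapped widely, and the difference of -0.06 ± 0.08 was not called (limma adjusted p = 0.523). Rps9 measured 11155, 11434 and 10751 in young and 9419, 10087 and 9359 in old perirenal cells, and 8455, 9449 and 10234 in young and 8700, 8781 and 9409 in old epididymal cells. It was higher in perirenal cells in 5 of 6 rats, at 0.18 ± 0.07 (limma adjusted p = 0.0450), although the arrays overlapped. After quantile normalization the difference of Rps9 was 0.53, while median centring turned it to -0.11.

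Rps6, the best known substrate of the S6 kinases, ranged from 14754 to 17660 on perirenal and from 19097 to 29440 on epididymal arrays. The depots did not overlap, and the difference was -0.40 ± 0.09 (limma adjusted p = 0.00174). The epididymal culture of old rat 2 had the highest value, 29440, with 21918 next. After quantile normalization the difference was 0.05. Rps23 and Rps15, near the decoding site, were lower at -0.40 ± 0.07 and -0.30 ± 0.09 as deposited, and stood at 0.07 and 0.08 after quantile normalization.

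None of the 3 tested paralogs was called lower by the brightest probe set of each. Rpl7l1, a relative of Rpl7, measured 1428.9, 1463.3 and 1584.6 in young and 1296.8, 1411.8 and 1543.1 in old perirenal cells. In epididymal cells it measured 830.3, 1057.9 and 822.2 in young and 1087.3, 826.1 and 1058.5 in old rats. All perirenal arrays were above all epididymal ones, at 0.63 ± 0.11 (limma adjusted p = 0.000334). Rps4y2, a copy of the small subunit gene Rps4, ranged from 219.1 to 359.0 and from 128.9 to 239.6, at 0.77 ± 0.18 (limma adjusted p = 0.00375), higher in 5 of 6 rats. Rps27l, a paralog of Rps27 known as a p53 target, ranged from 304.0 to 382.3 and from 193.5 to 383.3, and was not called (0.23 ± 0.14, limma adjusted p = 0.176).

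Among the 5 genes with several probe sets, the direction of the depot difference depended on the probe set in Rpsa, Rpl7 and Rpl7l1. Rpsa, a small subunit protein also known as the laminin receptor, had 3. The brightest gave -0.15 ± 0.08 and was not called (limma adjusted p = 0.137). A second gave -0.75 ± 0.11 with values from 6933 to 11153 on perirenal and from 13087 to 16246 on epididymal arrays, and the third gave 0.60 ± 0.13 with 2471.1 to 4073.0 and 1942.2 to 2201.5. These last probe sets did not overlap between depots and pointed in opposite directions. No direction is therefore given for Rpsa.

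Probe sets also pointed in opposite directions in Rpl7 and in its paralog Rpl7l1, although the lower probe set of each gene overlapped between depots. The bright probe set of Rpl7 was lower (-0.20 ± 0.08, limma adjusted p = 0.0439) and its dim one, at 127.7 to 354.0, was higher (0.71 ± 0.13, limma adjusted p = 0.000610). The second probe set of Rpl7l1 was lower (-0.36 ± 0.11, limma adjusted p = 0.0129), against the rise of the first, so the direction of Rpl7l1 also rests on the choice of probe set. The probe sets of Rps24 pointed the same way, at -0.38 ± 0.09 and -0.34 ± 0.16, of which the first was called. The second probe set of Rpl14 was below the level filter and was not tested. The other 39 members had 1 probe set, so this check could not be made for them.

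As deposited, members were mostly lower in perirenal cells at both ages. In young rats 22 members were lower and 3 higher (limma, adjusted p under 0.05), with a median of -0.32, where 14.9% of all tested probe sets were lower, 20% higher and 34.9% either way. In old rats 25 were lower and 1 higher, with a median of -0.45, where 12.5% of all were lower, 19.2% higher and 31.8% either way. After quantile normalization 7 were lower and 8 higher in young rats, with a median of 0.04 (all: 17.9% lower, 15.8% higher), and 5 were lower and 3 higher in old rats, with a median of 0.01 (all: 14.6% lower, 13.7% higher). As deposited, Rpl21 was lower by 0.87 ± 0.15 in young and by 0.84 ± 0.15 in old rats. Rpl26 stood at -0.70 ± 0.12 and -0.97 ± 0.12, Rpl5 at -0.61 ± 0.09 and -0.77 ± 0.09, and Rps29 at -0.71 ± 0.10 and -0.64 ± 0.10. By its brighter probe set, Rpl7l1 was called higher at both ages (0.73 ± 0.15 and 0.52 ± 0.15). Rpl39 (1.13 ± 0.28) and Rps4y2 (0.83 ± 0.26) were called higher in young rats. In old rats Rpl39 and Rps4y2 reached 0.75 ± 0.28 and 0.70 ± 0.26 without passing. Leaving out 1 rat of the same age lowered these counts, among the members and among all 11106 tested probe sets. Without young rat 1, 2 or 3, the members lower in young rats were 15, 14 and 16. All probe sets lower went from 1657 to 1076, 992 and 990. Without old rat 1, 2 or 3, the members lower in old rats were 22, 13 and 22. All probe sets lower went from 1392 to 874, 667 and 884. Old rat 2 also had the epididymal array with the highest Rps6 and Rpl6 signals and the high Rpl39 value. That array had the highest 3' to 5' actin ratio of the 12, at 55.0, and the highest single signal, at 44159. Whether this bears on the counts was not tested.

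A test of the change in the depot difference with age called no member. The interaction (age difference in perirenal minus that in epididymal cells) gave 0 of 43 members and 0% of all probe sets at an adjusted p under 0.05 (limma), and 1 member, against 5.51% of all, at an unadjusted p under 0.05. That member was Rpl6, a large subunit protein, at -0.40 ± 0.15 (limma adjusted p = 0.855). Its perirenal signals were 14648, 15425 and 16356 in young and 12584, 12697 and 13402 in old rats, which do not overlap. Its epididymal signals of 15371, 15926 and 17338 in young and 15491, 20733 and 17654 in old rats do. The next were Rpl37a at 0.59 ± 0.27 and Rps6 at -0.36 ± 0.17, neither past an unadjusted p of 0.05.

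Age was tested within each depot, and no ribosomal protein gene passed. In perirenal cells 0 of 43 members and 0% of all probe sets were called (limma, adjusted p under 0.05), and 2 members against 4.38% of all had an unadjusted p under 0.05. These were Rpl6 at -0.26 ± 0.11 and Rps9 at -0.21 ± 0.10. The members' median was -0.10 with 35 of 43 below 0, and after quantile normalization it was -0.03 with 27 below 0. Rpl5 stood at -0.17 ± 0.09, Rps6 at -0.15 ± 0.12, Rplp0 at -0.13 ± 0.10 and Rps15a at -0.31 ± 0.15. The highest was Rpl37a at 0.31 ± 0.19. With SEs of this size, the precision allows age differences of the order of the depot difference in single genes to go uncalled.

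In epididymal cells 0 of 43 members were called, against 0.072% of all probe sets (limma), and 2 against 8.35% had an unadjusted p under 0.05. Rpl11 was 13311, 15591 and 13893 in young and 11298, 11667 and 12283 in old rats. The ages did not overlap, at -0.28 ± 0.09 (limma adjusted p = 0.426). Rps27l was 254.3, 193.5 and 291.1 in young and 383.3, 375.9 and 267.9 in old rats, which overlap, at 0.48 ± 0.19 (limma adjusted p = 0.529). Its perirenal difference was 0.00 in size, with signals of 364.2, 316.7 and 330.2 in young and 325.5, 304.0 and 382.3 in old rats. The members' median was -0.01.

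**Figure D4:**
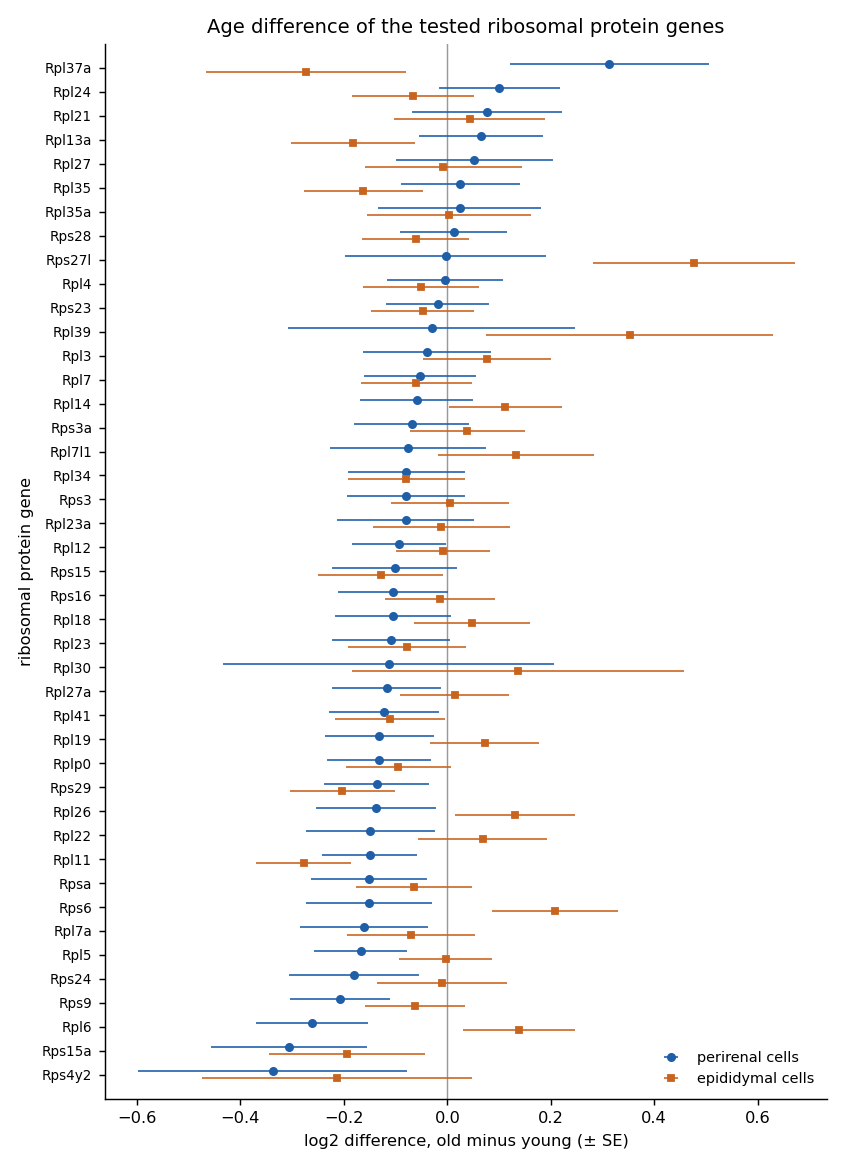
Log2 difference between old and young rats (x axis, ± SE from limma) of the 43 tested ribosomal protein genes (y axis), in perirenal cells (circles) and epididymal cells (squares), 3 arrays per age and depot. In perirenal cells 35 members lie below 0 with a median of -0.10, in epididymal cells 26 lie below 0 with a median of -0.01, and no member passed the adjusted threshold in either.

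Averaged over both depots of each rat, 0 of 43 members differed between ages, against 0.018% of all probe sets (limma), and 1 against 5.83% had an unadjusted p under 0.05. That was Rpl11 at -0.21 ± 0.08 (limma adjusted p = 0.844), the member with the smallest p in epididymal cells as well, and the comparisons share those arrays. The members ranged from -0.28 (Rps4y2) to 0.24 (Rps27l), with a median of -0.05.

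The rest of the translation machinery was read from lists of genes. Their counts stand beside 21.4% lower and 30.2% higher among all tested probe sets. Of 36 tested initiation factors 12 were lower and 5 higher in perirenal cells (limma), with a median of -0.12. The smallest p belonged to Eif1a (-0.93 ± 0.14) and Eif1ax (-0.61 ± 0.11), which help to find the start codon, with Eif4g2 (-0.48 ± 0.08) and Eif3h (-0.44 ± 0.08). Of 13 elongation and termination factors 5 were lower and 2 higher (median -0.05). The release factor Gspt1 was lower (-0.78 ± 0.10), and Dohh, which completes the hypusine of Eif5a, was higher (0.86 ± 0.12). Eif1a, Eif1ax and Gspt1 stood at -0.93, -0.55 and -0.68 after quantile normalization.

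Of 56 tested assembly and nucleolar genes, which build ribosomes, 14 were lower and 11 higher (median -0.06), a share close to that of all probe sets for the lower calls and smaller for the higher calls. Nop16 (0.92 ± 0.10) and Polr1d (0.65 ± 0.09), a subunit shared by RNA polymerases I and III, were higher, and Nop53 (-0.76 ± 0.12) was lower. The 74 mitochondrial ribosomal protein genes, which code for the separate ribosome of that organelle, had 17 lower and 13 higher with a median of 0.00, again near the share of all probe sets for the lower calls and below it for the higher calls. Mrps15 was lower (-1.30 ± 0.13) and Mrpl57 higher (2.23 ± 0.23). After quantile normalization the mitochondrial set had 21 lower and 14 higher with a median of -0.04. Whether the cytosolic and mitochondrial sets differ was not tested.

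Genes outside the ribosomal protein set with TOP mRNAs, and ribosomal partners, numbered 15 tested, with 7 lower and 1 higher (median -0.05). After quantile normalization 2 were lower and 6 higher (median 0.16). This list overlaps those of the initiation and elongation factors. Among its lower genes, Eef1b2, Eef1g, Eef2, Eif3f and Eif3h were already counted there, as were genes not called, such as Eef1a1. Rack1, a protein of the small subunit's surface, was lower as deposited (-0.43 ± 0.07) and stood at -0.02 after quantile normalization, much as Rplp0 did. Among 22 genes of growth signalling to the ribosome, 5 were lower and 7 higher (median -0.10). Rps6kb1, the kinase of Rps6, was higher (1.41 ± 0.15), with signals from 238.7 to 388.2 on perirenal and from 92.7 to 163.0 on epididymal arrays. Eif4ebp2, a repressor of cap-dependent initiation, was higher (1.09 ± 0.17), while Tsc1, an inhibitor of mTOR, was lower (-0.92 ± 0.12). In the age comparisons and the interaction none of these 6 lists had a gene called (limma).

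For age, the share of list genes with an unadjusted p under 0.05 was near that of all probe sets. In perirenal cells it was 11 of 207 genes (5.31%, against 4.38% of all), 8 higher and 3 lower in old rats. The smallest p in each direction belonged to the mitochondrial gene Mrps15 (0.63 ± 0.19, limma adjusted p = 0.872) and to Naca (-0.29 ± 0.11, limma adjusted p = 0.999), a subunit of the nascent chain-associated complex. In epididymal cells it was 18 of 207 (8.7%, against 8.35% of all), 9 higher and 9 lower, led by the initiation factor Eif2s1 (0.45 ± 0.14, limma adjusted p = 0.379) and the mitochondrial gene Mrpl34 (-0.53 ± 0.14, limma adjusted p = 0.293).

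**Figure D5:**
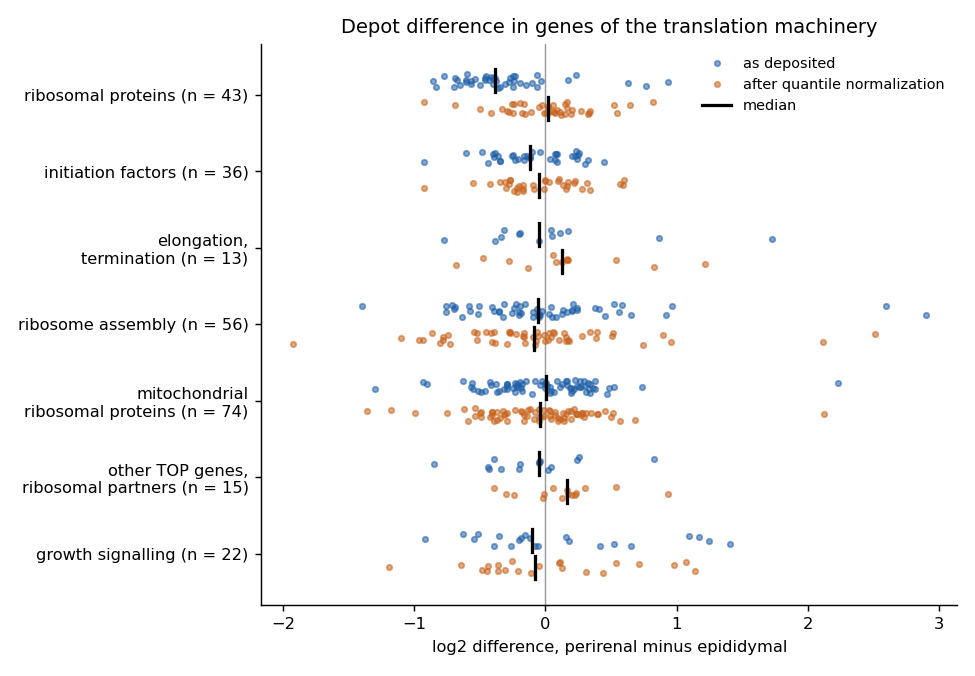
Log2 difference between perirenal and epididymal cells (x axis) for each tested gene of the ribosomal protein set and 6 lists of the translation machinery (y axis, with the number of genes), as deposited and after quantile normalization, with list medians as black bars. The ribosomal protein median moves from -0.38 to 0.02, while those of the initiation factors move from -0.12 to -0.05 and of the mitochondrial ribosomal proteins from 0.00 to -0.04. The list of other TOP genes shares genes with the initiation and elongation lists.

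Markers of the cells in the cultures also differed between the depots, where 21.4% of all tested probe sets were lower and 30.2% higher. Of 19 preadipocyte and fibroblast genes on the array, 17 passed the level filter and were tested, of which 11 were lower and 2 higher. After quantile normalization 7 were lower and 4 higher, where 25.8% of all tested probe sets were lower and 22.8% higher. Among them Col1a1, a fibrillar collagen, gave values from 16719 to 21653 on perirenal and from 28463 to 40124 on epididymal arrays. All 9 smooth muscle markers were lower in perirenal cells, with summed signals from 11105 to 19231 on the 6 perirenal and from 29728 to 45526 on the 6 epididymal arrays. Of 9 tested macrophage and leukocyte markers 6 were higher, led by Cd14 (2.85 ± 0.14), with summed signals of 2079 to 4229 and 985.4 to 2003. After quantile normalization 1 of the 9, Cd14, was called higher, and their median was 0.29 instead of 0.69. The labels state that macrophage markers were alike in the depots. Of 23 proliferation genes 10 were higher and 1 lower, and of 5 mesothelial markers 2 were lower, among them Wt1 (-1.64 ± 0.15). Of 7 mature adipocyte genes on the array, Lep, Plin1 and Lipe were below the level filter. The other 4 were tested, and 0 were called between the depots (limma, median 0.18). The summed signal of the 7 genes lay between 10514 and 14919 over all 12 arrays, so this list was not dim as a whole. Of 6 endothelial markers 5 were below the level filter, and the erythroid genes had no tested probe set. The part of these markers in the ribosomal protein differences was not tested, and a different mix of cells cannot be told apart here from a different RNA level per cell.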

How the data were processed

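The authors deposited linear intensity values, 1 for each probe set of an array, made with MAS5 per the submitters' processing notes (version and parameters not given in the sources used here). Per the labels' protocols, RNA was extracted with TRIzol and biotin-labelled from an oligo-dT primer. Detection calls and image files were not used here. The members and gene lists were chosen with earlier results of these data known. Signals were put on the log2 scale, with 2 signals of 0 set to 0.1. Of 15923 probe sets, 57 controls and the 30% with the lowest mean log2 signal (geometric mean under 56.3) were left out, and 11106 were tested. Symbols came from GEO's platform annotation.

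A limma fit (3.58.1, R 4.3.3) of the 4 group means over the 12 arrays, with eBayes moderation along the intensity trend, gave every difference and SE, adjusted by the Benjamini-Hochberg method over the tested probe sets at a threshold of 0.05. The age difference averaged over depots used the mean of both arrays of a rat. The scripts were tested on simulated data. Per the labels, which number the animal of each array, the arrays of both depots come from the same 6 rats, which pairs them. Their deviations from the group means correlated at 0.0393 to 0.201, and each rat's best match was its own other array in 6 of 6 rats. Fits with the rat as a replicate block were alternatives, with quantile, loess and median scaling, other filters, an offset, another choice of probe set, the 3' to 5' actin ratio and single rats left out.

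Named members were Rplp0, Rpsa, Rps6, Rps3, Rpl5, Rpl11, Rpl13a, Rpl41 and the paralogs, with the 6 largest rises and falls past the threshold in each comparison, or, with fewer than 4 passing, the 3 members per direction that had the smallest p. Named genes of a list were taken from the up to 4 with the smallest p past the threshold. Where none passed, 2 with the smallest p were to be named per list, of which the text gives the smallest p per direction over all lists, a choice made after seeing the values. Other members were named after their values were seen.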

Additional observations from a re-analysis of the deposited data

How the results depend on the processing

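In the depot difference averaged over ages (32 lower, 4 higher, median -0.38 as deposited), the actin covariate removed the most calls (below) and the scaling moved the median most. Quantile normalization gave 9 lower, 12 higher and a median of 0.021, and turned Rpl6 (0.15), Rpsa (0.27), Rps6 (0.052), Rpl13a (0.34), Rpl19 (0.056), Rpl18 (0.020), Rps24 (0.0053), Rps23 (0.069), Rpl22 (0.33), Rpl7a (0.021), Rps3 (0.32), Rps16 (0.087), Rpl11 (0.12), Rpl27a (0.018), Rpl34 (0.15), Rpl12 (0.16), Rps15 (0.076), Rpl14 (0.20), Rpl23 (0.20) and Rpl7 (0.17) above 0. Loess gave 15, 7 and -0.055, and left 16 members above 0, against 5 as deposited. Among those that turned above 0 were Rpl6 (0.057), Rpl13a (0.25), Rpl22 (0.23), Rps3 (0.22), Rpl11 (0.013), Rpl34 (0.041), Rpl12 (0.057), Rpl23 (0.094), Rpl7 (0.081) and Rpsa (0.17). Median centring gave a median of -0.67 and turned Rps9 to -0.11. Centring on the members, chosen after seeing the data, gave 11 lower and 9 higher.

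In young rats quantile normalization gave 7 lower, 8 higher and a median of 0.036 (Rpl11 0.052, Rps3 0.35, Rpsa 0.29), loess 7 lower and -0.067, median centring -0.58, and centring on the members 7 lower and 7 higher. In old rats these were 5 lower, 3 higher and 0.0060 for quantile, 8 lower, 3 higher and -0.12 for loess, 0 higher and -0.75 for median centring, and 8 lower and 5 higher for the members' centre. Of all 11106 tested probe sets, loess called 1788 lower and 1749 higher in young and 1524 and 1542 in old rats. Centring on the members called 631 lower and 4083 higher in young and 509 and 4153 in old rats. Median centring called 1241 of all higher in old rats. After quantile normalization the medians of the age difference in perirenal cells and of the interaction were -0.027 and 0.0072.

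With the actin ratio as a covariate (limma), 0 members were lower and 1 higher averaged over ages and in young rats, with medians of -0.23 and -0.20, and 0 either way in old rats, with -0.25. In the same order, all 11106 tested probe sets had 105, 155 and 7 lower and 169, 257 and 25 higher. At an unadjusted p under 0.05 there were 11, 11 and 9 members, against 2250, 2432 and 1713 of all tested probe sets. Rpl6 (0.11), Rpl37a (0.025), Rpl34 (0.0085), Rps4y2 (-0.24, -0.11 in young rats) and Rpl7 (0.071) reversed, as did Rpl7l1 in old rats, to a value of almost 0 (-9.411e-07). The ratio follows the depot, which leaves little for either term. Without the 2 arrays of highest ratio the median in old rats was -0.38. The lowest instead of the highest probe set turned Rpsa to 0.60, 0.59 and 0.61, Rpl7l1 to -0.36, -0.44 and -0.28 (averaged, young, old) and Rpl7 to 0.71. A replicate block for the rat gave 2 members higher in old rats when fixed and 3 when random, instead of 1, and moved none of the other counts of called members by over 1.5 times. All tested probe sets higher in old rats were 2169 with the fixed and 2378 with the random block, instead of 2136. Members with an unadjusted p under 0.05 in the interaction were 2 with the fixed and 3 with the random block, instead of 1, and 1 instead of 2 for age in perirenal cells with the random block. Over all tested probe sets these were 722 and 740 instead of 612, and 493 instead of 486.

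With 1 rat left out, the members lower in young rats were 14 to 21, those lower in old rats 13 to 25 (13 without old rat 2), those higher in old rats 0 to 2, the median in old rats -0.50 to -0.34 and that of the interaction -0.13 to 0.0027. In the same fits, 990 to 1674 of all tested probe sets were lower in young rats. In old rats 667 to 1381 were lower and 1159 to 2115 higher. The age comparisons and the interaction called 0 members under every setting run (limma), with 0 to 4 at an unadjusted p under 0.05. The cause of these changes was not tested.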
